A study of Mus musculus with 5 samples.

Results

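Excitation-contraction coupling genes encode the proteins by which a muscle fiber turns an electrical signal into a release of calcium. The 10 genes described here are Ryr1, Cacna1s, Atp2a1, Atp2a2, Casq1, Casq2, Trdn, Jph1, Jph2 and Stac3, taken by their symbols from a deposited matrix of 22683 genes. All 10 were found, once each, and all 10 passed the filter on low values (at least 10 in at least 2 libraries). RNA was measured by total RNA sequencing of satellite cells, the stem cells of skeletal muscle, purified by flow sorting and described as quiescent. There were 3 libraries of mdx mice, mutant for dystrophin (Dmd) and used as a model of Duchenne muscular dystrophy, and 2 libraries from wild-type mice, each made from between 10000 and 20000 sorted cells. The sources used here do not give strain, age, muscle, sorting markers or whether animals were pooled. Nor do they say that each library came from its own animal, so p-values reflect library-to-library spread only, which may be technical.

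In a resting fiber, the voltage sensor in the transverse tubule, encoded by Cacna1s, is coupled to the calcium release channel of the sarcoplasmic reticulum, encoded by Ryr1, with Stac3 as an adaptor that the coupling needs. Junctophilins hold the 2 membranes together, calsequestrins buffer calcium inside the store, triadin links calsequestrin to the release channel, and SERCA pumps return calcium to the store. Satellite cells do not contract, and this machinery is known to be built as their progeny differentiate and fuse into fibers. Atp2a2 is the exception among the 10, since its protein also fills the endoplasmic reticulum of most cell types.

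Totals over all genes were 15930638, 12473348 and 13932270 normalized counts in mdx and 15217054 and 16825045 in wild type. Dmd stood at 4642, 4116 and 3700 normalized counts in mdx 1, 2 and 3, against 11826 and 9266 in wild type 1 and 2. Xist, the transcript of the inactive X chromosome, was at 0, 0 and 12 in mdx and at 30235 and 30176 in wild type, while the 4 Y-linked genes Ddx3y, Eif2s3y, Kdm5d and Uty ran from 430 to 967 in mdx and from 0 to 9 in wild type. Genotype and sex cannot be told apart in any comparison here. Satellite cell markers were present in every library, with 3 of 12 called higher in mdx and 7 lower, against 14.6% and 10.3% of all tested genes. They summed to between 49464 and 71092 normalized counts in mdx and between 110927 and 121723 in wild type. The largest parts of the wild-type sums were Sdc4 (30886 and 27833, against 3261, 2633 and 2916 in mdx) and Chodl (27683 and 29240, against 5854, 4554 and 7456). Pax7, not called, had 12767, 9751 and 14989 in mdx and 9103 and 7644 in wild type. These 3 genes were named after their values were seen.

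Of the 10 coupling genes, 5 were higher in mdx (Ryr1, Atp2a1, Atp2a2, Casq2 and Jph2), 0 were lower and 5 did not pass the test (limma, Benjamini-Hochberg adjusted p over 18199 tested genes, threshold 0.05). Over all tested genes, 14.6% were called higher and 10.3% lower, 24.9% in all. At an unadjusted p under 0.05 in the same fit, 7 of the 10 were higher and 0 lower, against 21.7% and 16.4% of all tested genes. The count of 5 was 3 without mdx 1, 3 without mdx 2 and 2 without mdx 3, where 9.97%, 8.71% and 8.47% of all tested genes were called higher. In 7 of the 10, all 3 mdx libraries lay above both wild-type libraries, as they did in 28.2% of all tested genes. The median log2 fold change of the 10 genes was 2.49, and that of all tested genes was 0.13 on the same scale, log2(normalized count + 2). In bulk RNA, more cells that express a gene and more of its RNA per cell cannot be told apart.

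**Figure D1:**
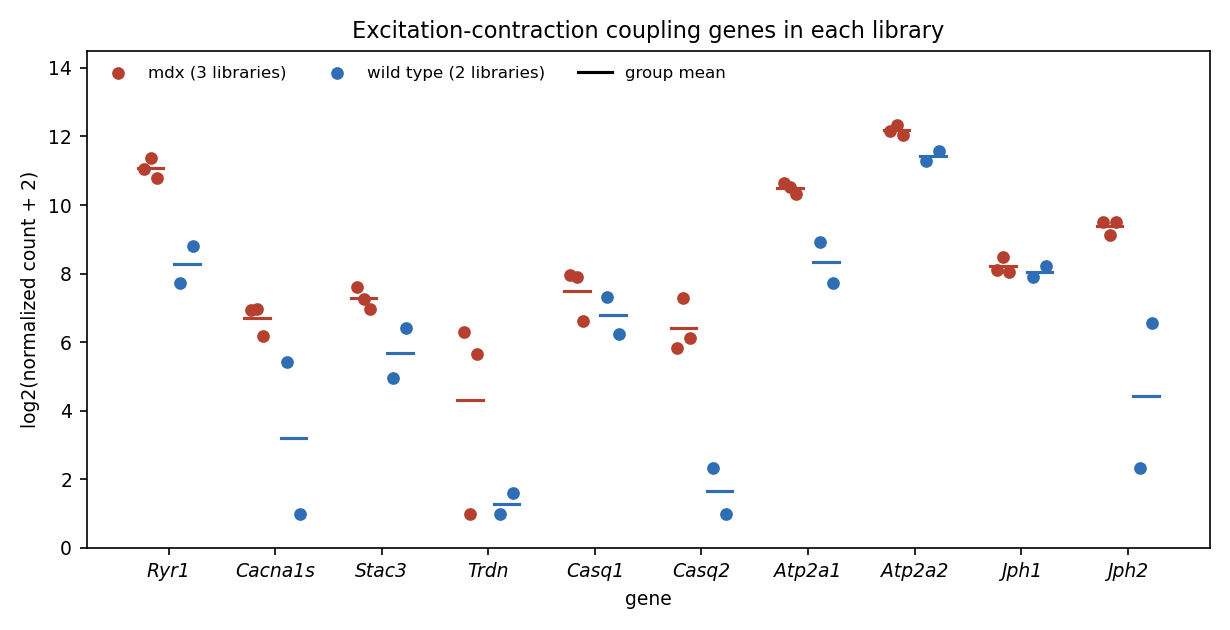
Level of each of the 10 coupling genes in each library, as log2(normalized count + 2) on the vertical axis. Points are libraries (3 mdx, left, and 2 wild type, right, for each gene) and horizontal bars are group means. Jph2 and Casq2 show wide gaps between the genotypes, while the points of Jph1, Casq1 and Trdn overlap.

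The promoter-proximal sequence is shown for the 4 called genes whose start lies in the RefSeq promoter table (GRCm38.p6), and for Casq1, the uncalled relative of Casq2. Windows were found for 6 of the 10 genes. They cover 250 bases before the annotated start, cut where an exon annotated in GENCODE M21 begins, and are printed 5′ to 3′ with each E-box (CANNTG, the core bound by MyoD and myogenin among other factors, searched on both strands) in capitals.
Ryr1 (chr7:29125180-29125401, minus strand): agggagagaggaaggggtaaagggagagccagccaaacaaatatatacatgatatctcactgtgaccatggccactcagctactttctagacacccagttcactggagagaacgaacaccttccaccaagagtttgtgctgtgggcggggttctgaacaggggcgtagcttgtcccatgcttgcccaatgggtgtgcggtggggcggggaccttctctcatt
Atp2a1 (chr7:126463109-126463323, minus strand): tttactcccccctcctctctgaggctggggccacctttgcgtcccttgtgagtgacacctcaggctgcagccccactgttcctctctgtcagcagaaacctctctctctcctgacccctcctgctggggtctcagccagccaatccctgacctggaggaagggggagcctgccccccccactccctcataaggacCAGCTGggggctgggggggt
Casq2 (chr3:102086165-102086414, plus strand): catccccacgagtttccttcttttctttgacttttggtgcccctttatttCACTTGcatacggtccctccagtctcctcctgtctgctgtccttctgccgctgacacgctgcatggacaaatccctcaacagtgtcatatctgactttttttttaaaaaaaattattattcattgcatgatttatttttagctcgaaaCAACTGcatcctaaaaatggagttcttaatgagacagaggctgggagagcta
Jph2 (chr2:163397994-163398243, minus strand): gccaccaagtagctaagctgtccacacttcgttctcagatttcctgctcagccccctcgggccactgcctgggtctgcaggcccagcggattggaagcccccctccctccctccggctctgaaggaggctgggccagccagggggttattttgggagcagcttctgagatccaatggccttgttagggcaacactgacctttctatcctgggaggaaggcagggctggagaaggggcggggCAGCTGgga
Casq1 (chr1:172219896-172220145, minus strand): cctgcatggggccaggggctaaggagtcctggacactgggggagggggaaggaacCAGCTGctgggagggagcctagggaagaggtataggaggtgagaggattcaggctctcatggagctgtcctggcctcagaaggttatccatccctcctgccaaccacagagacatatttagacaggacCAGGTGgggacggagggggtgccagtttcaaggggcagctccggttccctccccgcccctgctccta
An E-box stood in the full 250-base window of 5 of the 6 genes, all but Ryr1, and in 66.2% of 32851 windows of the same length in the table. The form CAGCTG, which is 1 of the E-box sequences and therefore counted in both searches, stood in 4 of the 6 genes (Atp2a1, Jph2, Casq1 and Cacna1s) and in 13% of all windows. A MEF2 site by its standard consensus was present in Casq2 only, against 2.92% of all windows, and a CArG box in 0 of the 6, against 1.47%. Both the called Jph2 and the uncalled Casq1 held CAGCTG, so the letters did not separate called from uncalled genes.

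The release channel gene was among the clearest of the set. Ryr1 (chromosome 7, 29003344 to 29125151 in mm10, minus strand) had 2140, 2669 and 1764 normalized counts in mdx 1, 2 and 3, against 211 and 445 in wild type 1 and 2. Every mdx library lay well above both wild-type libraries. The means were 2191 ± 455 in mdx and 328 ± 165 in wild type (SD, n = 3 and n = 2), giving a log2 fold change of 2.81 (SE 0.34, 95% interval 2.04 to 3.58, limma adjusted p = 0.000565), which is 7.01-fold. The call held in every alternative setting that kept both wild-type libraries, with limma adjusted p up to 0.0266. Without wild type 1 or wild type 2, which leaves 1 wild-type library, the log2 fold change was 2.27 and 3.34. It was 1.35 once the dependence on transcript length and GC content had been subtracted per library. At 15.4 kb, Ryr1 has the longest transcript of the 10. Its GC content of 58.0% is also high, with only Jph2 above it (61.8%). The correction removes length and GC together, and their separate parts were not tested.

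Cacna1s and Stac3, whose products act together as voltage sensor and adaptor, were higher in every mdx library than in both wild-type libraries but did not pass. Cacna1s (chromosome 1, 136052750 to 136119822, plus strand) had 121, 124 and 71 normalized counts in mdx and 41 and 0 in wild type. Its log2 fold change of 3.49 had a 95% interval of 0.50 to 6.48 (limma adjusted p = 0.0847), and it depended on the wild-type library kept, at 5.70 without wild type 1 and 1.28 without wild type 2. Those fits hold 1 wild-type library, so their p-values carry no wild-type spread and are not given. Cacna1s passed in no alternative that kept both wild-type libraries (limma adjusted p = 0.0597 to 0.235). Stac3 (chromosome 10, 127501686 to 127508823, plus strand) had 194, 151 and 123 normalized counts in mdx and 29 and 83 in wild type. With a log2 fold change of 1.60 (95% interval 0.04 to 3.16, limma adjusted p = 0.123), it did not pass. Nor did it pass in any alternative that kept both wild-type libraries (limma adjusted p up to 0.264). Its log2 fold change was 0.87 without wild type 1 and 2.33 without wild type 2.

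Trdn, the gene of the triadin that anchors calsequestrin to the release channel, had low values in every library. Its normalized counts were 76, 0 and 48 in mdx 1, 2 and 3, against 0 and 1 in wild type (chromosome 10, 33080554 to 33476709, plus strand). The groups overlapped because mdx 2 was at 0. Trdn did not pass (log2 fold change 3.02 on the log2(normalized count + 2) scale, 95% interval −1.01 to 7.04, limma adjusted p = 0.247). Among the alternatives that kept both wild-type libraries and could test it, Trdn passed only without mdx 2 (log2 fold change 4.67, limma adjusted p = 0.0450). The highest limma adjusted p among them was 0.422. Trdn fell under the filter without mdx 1, without mdx 3 and with a minimum of 50.

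Of the calsequestrin genes, Casq2 passed and Casq1 did not. Casq2, the gene of the cardiac and slow-fiber form (chromosome 3, 102086415 to 102146514, plus strand), had 55, 153 and 68 normalized counts in mdx and 3 and 0 in wild type. All mdx libraries lay above both wild-type libraries, where the gene was close to 0, so the size of the difference is poorly fixed. Casq2 passed with a fitted log2 fold change of 4.75 (SE 1.14, 95% interval 2.17 to 7.33, limma adjusted p = 0.0164), which was 3.04 with a pseudocount of 10 and 5.39 with a pseudocount of 1. The call ended without mdx 2 or without mdx 3 (limma adjusted p = 0.0571 and 0.0590). Over the alternatives that kept both wild-type libraries, the limma adjusted p ran from 0.0133 to 0.0853.

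Casq1, the gene of the fast-fiber form (chromosome 1, 172209894 to 172219868, minus strand), had 247, 239 and 96 normalized counts in mdx and 159 and 73 in wild type. The genotypes overlapped, with mdx 3 below wild type 1. Casq1 did not pass, with a log2 fold change of 0.72 (95% interval −0.73 to 2.16, limma adjusted p = 0.439), an interval that includes both higher and lower levels in mdx.

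Among the pump genes, Atp2a1, encoding the SERCA pump of fast fibers (chromosome 7, 126445858 to 126463108, minus strand), had 1610, 1464 and 1275 normalized counts in mdx and 482 and 211 in wild type. The mdx libraries were close to each other and all above both wild-type libraries. The means were 1450 ± 168 in mdx and 347 ± 192 in wild type, a 4.50-fold rise (log2 fold change 2.17, SE 0.35, 95% interval 1.37 to 2.97, limma adjusted p = 0.00261). It was called in every alternative that kept both wild-type libraries (limma adjusted p up to 0.0453). Over all 14 alternatives the log2 fold changes were 1.58 to 2.76, the lowest without wild type 2 and the highest without wild type 1.

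Atp2a2, encoding the pump of slow fibers, heart and non-muscle cells (chromosome 5, 122453514 to 122502225, minus strand), was the most abundant of the 10 in every library. It had 4592, 5138 and 4220 normalized counts in mdx and 2503 and 3048 in wild type, again without overlap. The rise was 1.68-fold (log2 fold change 0.75, SE 0.18, 95% interval 0.34 to 1.16, limma adjusted p = 0.0171). The call of Atp2a2 ended on leaving out mdx 1, mdx 2 or mdx 3 (limma adjusted p = 0.0691, 0.0711 and 0.0513). It also ended with a replicate block and with plain moderation (limma adjusted p = 0.0649 and 0.179). The log2 fold change was 0.60 without wild type 1 and 0.89 without wild type 2. After the length and GC correction the log2 fold change was 0.22, and the call ended there too (limma adjusted p = 0.384). That was the highest over the alternatives that kept both wild-type libraries, whose lowest was 0.00483.

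The junctophilins, which tie the sarcoplasmic reticulum to the surface membrane, include Jph2, which passed, and Jph1, which did not. Jph2, the main cardiac form that is also made in skeletal muscle (chromosome 2, 163336242 to 163397993, minus strand), had 726, 561 and 723 normalized counts in mdx and 3 and 92 in wild type. The wild-type libraries differed widely from each other, yet both were far below the lowest mdx library. For Jph2 the log2 fold change came to 4.94 (SE 1.03, 95% interval 2.62 to 7.27, limma adjusted p = 0.00856), 2.83 without wild type 1 and 7.06 without wild type 2. Leaving out mdx 1, 2 or 3 ended the call (limma adjusted p = 0.0776, 0.0683 and 0.0820), as did plain moderation of the variances. The lowest limma adjusted p was 0.00081 over the alternatives that kept both wild-type libraries. After the length and GC correction the log2 fold change of Jph2 was 3.59 (limma adjusted p = 0.0371). Jph1, the skeletal muscle form (chromosome 1, 16994938 to 17097889, minus strand), had 272, 354 and 264 normalized counts in mdx and 238 and 294 in wild type. It had the smallest difference of the set, with a log2 fold change of 0.15 (95% interval −0.71 to 1.01, limma adjusted p = 0.806), and −0.15 after the length and GC correction.

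**Figure D2:**
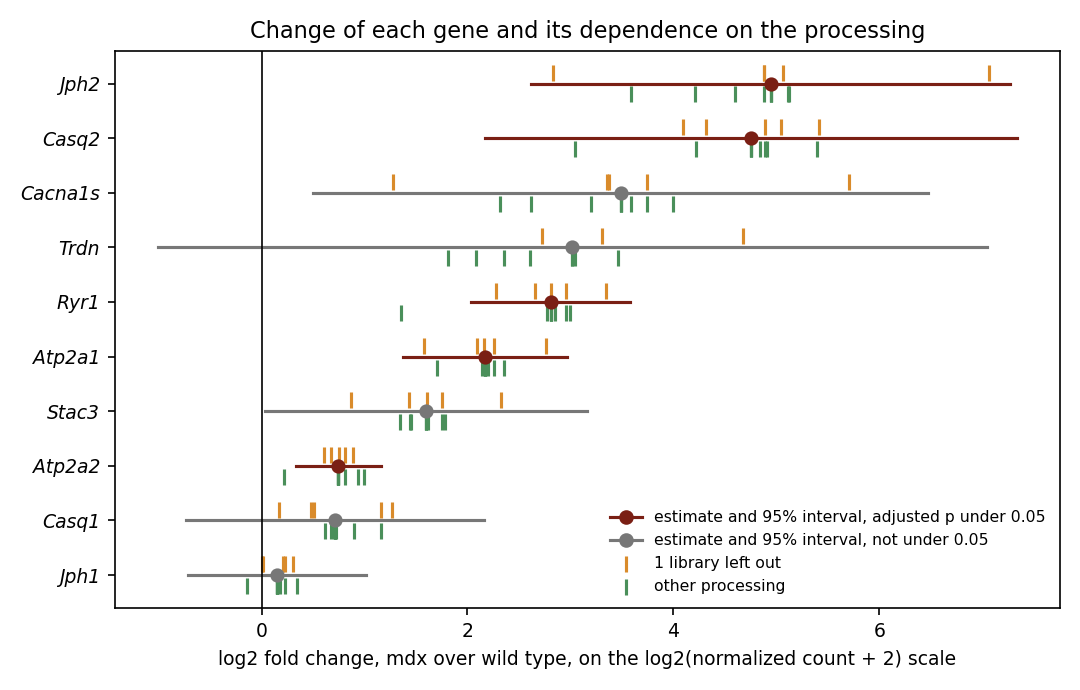
Log2 fold change of each coupling gene, mdx over wild type, on the log2(normalized count + 2) scale. Dots and horizontal lines are limma estimates with 95% intervals, dark red where the adjusted p is under 0.05 and grey where it is not, with upper ticks for fits that leave out 1 library and lower ticks for other processing. Jph2 has ticks from 2.83 to 7.06 and Ryr1 from 1.35 to 3.34, and 1 tick of Jph1 lies below 0.

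Since the 2 genes of a family share a library, library scaling largely cancels in their ratio. The log2 ratio of Atp2a1 to Atp2a2 averaged −1.68 ± 0.15 in mdx and −3.11 ± 1.04 in wild type, a difference of 1.42. For Casq1 to Casq2 it averaged 1.08 ± 0.91 in mdx and 5.12 ± 0.16 in wild type, a difference of −4.04. That of Jph1 to Jph2 averaged −1.17 ± 0.44 in mdx and 3.62 ± 2.78 in wild type, a difference of −4.79, so the sign differed between the genotypes. None of the 3 ratios overlapped between the genotypes, and an exact two-sided permutation test over the 5 libraries gave p = 0.1 for each (0.1 after Benjamini-Hochberg adjustment over the 3 pairs), the smallest value that 10 splits allow. Leaving out wild type 1 or wild type 2 moved the difference to 2.16 and 0.69 for the pumps and to −2.83 and −6.76 for the junctophilins. Since Casq2 was at 3 and 0 in wild type, the difference for the calsequestrins depended on the pseudocount, at −4.67 with 1 and −2.36 with 10.

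Per kilobase of the longest annotated transcript, the coupling genes spanned a wide range of levels. In mdx the order ran from Atp2a2, at 820 ± 81.4 normalized counts per kb, through Atp2a1 (417 ± 48.3), Jph2 (159 ± 22.4), Ryr1 (143 ± 29.6), Casq1 (105 ± 46.0), Stac3 (87.2 ± 20.0), Jph1 (61.7 ± 10.4), Casq2 (36.0 ± 20.8) and Cacna1s (16.9 ± 4.76) to Trdn (9.16 ± 8.51). Neighbours in this order were separated, in the sense that their libraries did not overlap, only between Atp2a2 and Atp2a1, between Atp2a1 and Jph2, and between Casq2 and Cacna1s. In wild type Atp2a2 again led, at 489 ± 67.9 normalized counts per kb, followed by Atp2a1 (99.7 ± 55.1), Casq1 (62.8 ± 32.9), Jph1 (55.3 ± 8.23), Stac3 (31.3 ± 21.3), Ryr1 (21.4 ± 10.8), Jph2 (11.3 ± 14.9), Cacna1s (3.28 ± 4.64), Casq2 (0.587 ± 0.830) and Trdn (0.111 ± 0.157). Only Atp2a2 from Atp2a1 and Jph1 from Stac3 were separated among these neighbours. Jph2 and Ryr1 stood directly after the pumps in mdx, and below Casq1, Jph1 and Stac3 in wild type.

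The same scale shows each gene's share of its family. Ryr1 made up 78.8%, 82.5% and 82.8% of ryanodine receptor signal per kb in mdx 1, 2 and 3, against 13.4% and 54.7% in wild type 1 and 2. The rest was nearly all Ryr3, the form found in immature muscle and brain and named here after its values were seen, with 561, 540 and 370 normalized counts in mdx and 1378 and 371 in wild type. The skeletal release channel was thus the larger part in all mdx libraries and in wild type 2, and the smaller part in wild type 1.

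Among SERCA genes, Atp2a1 took 31.3%, 28.1% and 27.8% in mdx and 22.8% and 10.1% in wild type. Atp2a2 held most of the signal in every library, with 54.8%, 60.5% and 56.3% in mdx and 72.4% and 89.5% in wild type. Atp2a3, whose product is found in blood, endothelial and epithelial cells, took 13.9%, 11.4% and 15.9% in mdx and 4.85% and 0.434% in wild type.

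Cacna1s was a minor part of the L-type channel subunits, at 23.8%, 29.5% and 12.9% in mdx and 7.14% and 0% in wild type. Cacna1d, a form of neurons and endocrine cells named here after its values were seen, held more than any other in each library (50.9%, 51.3% and 77.4% in mdx, 92.7% and 96.5% in wild type). Jph2 made up 70.7%, 60.5% and 66.9% of junctophilin signal in mdx and 1.07% and 23.7% in wild type. Casq2 made up 13.9%, 31.6% and 33.9% of calsequestrin signal in mdx and 1.35% and 0% in wild type. Stac3 held most of the Stac signal throughout, at 98.2%, 69.1% and 69.3% in mdx and 60.7% and 69.5% in wild type, and here the genotypes overlapped.

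**Figure D3:**
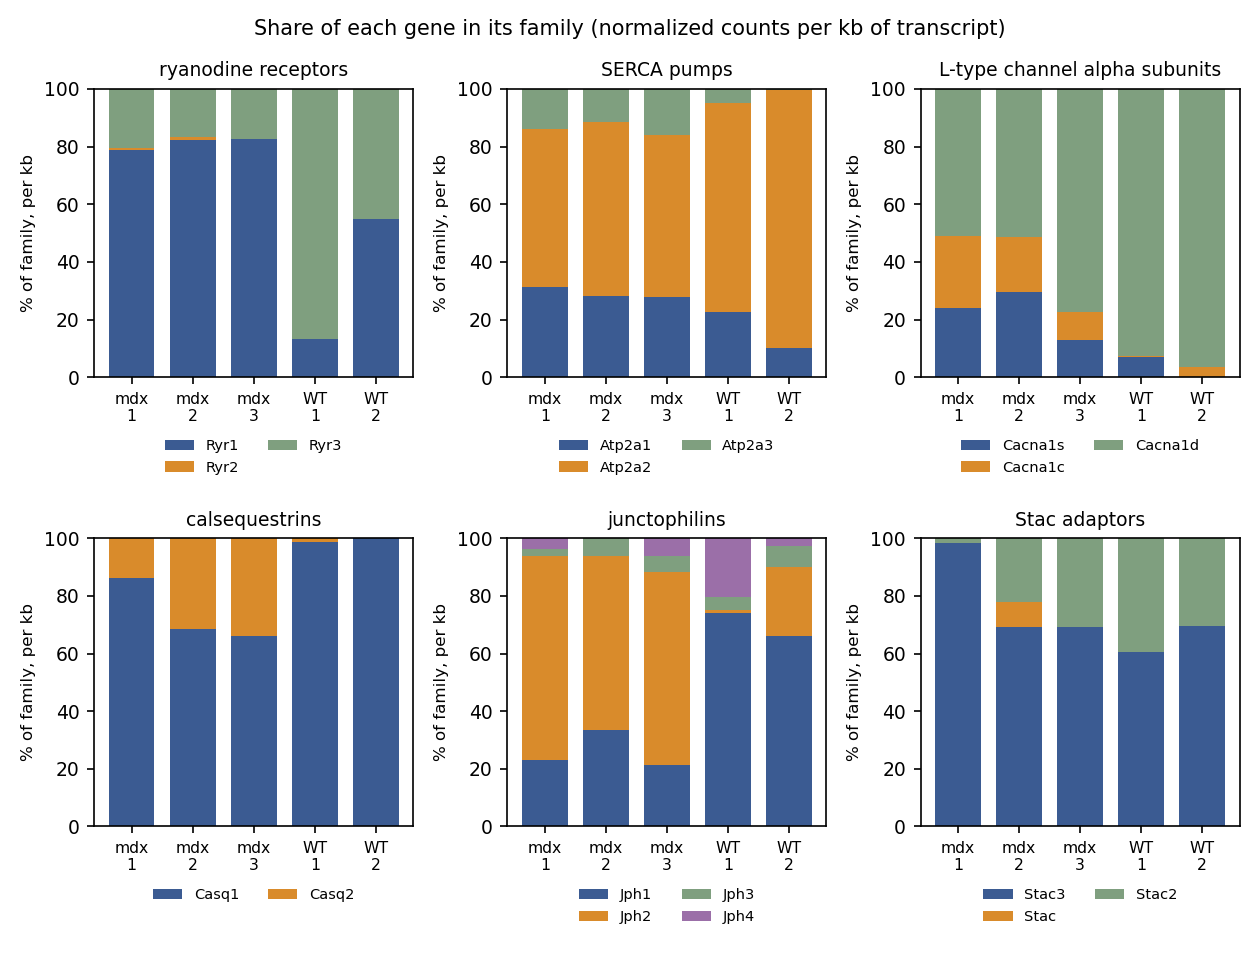
Share of each gene in its family as a percentage of the family's normalized counts per kb of transcript (vertical axes), with 1 bar for each library, mdx 1 to 3 on the left and wild type (WT) 1 and 2 on the right. Ryr1 reaches 78.8% to 82.8% in mdx against 13.4% and 54.7% in wild type, and Jph2 60.5% to 70.7% against 1.07% and 23.7%.

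Other genes of calcium handling and excitation were counted from 5 lists. Of 72 tested genes, 28 were higher in mdx, 4 lower and 40 not called, against 14.6% higher and 10.3% lower of all tested genes. The median of their log2 fold changes was 1.05, and 0.84 for the 65 genes above 0 in both genotypes, beside 0.13 and 0.01 for all tested genes. The genes Sln, Strit1, Arln, Erln and Cacna1f were not found in the matrix by symbol or synonym. Fkbp1b, Stac, Kcnj11 and Chrne fell under the filter. The count of 28 was 17 after the length and GC correction, and 16, 10 and 9 without mdx 1, 2 or 3. In the same settings 9.73%, 9.97%, 8.71% and 8.47% of all tested genes were called higher.

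Partners of the channel complex rose in 9 of 18 cases and fell in 1. Camk2b, a subunit gene of the calcium- and calmodulin-dependent kinase, had 130, 85 and 193 normalized counts in mdx and 0 and 0 in wild type (limma adjusted p = 0.00395). Camk2g, another subunit of that kinase, had 976 ± 265 in mdx and 321 ± 22.6 in wild type, a 2.95-fold rise. Cacng1, the gamma subunit that accompanies Cacna1s in skeletal muscle, had 167, 441 and 482 in mdx and 26 and 0 in wild type (limma adjusted p = 0.00851). Calm2, 1 of several calmodulin genes, fell to 1839 ± 51.1 in mdx, against 3572 ± 735 in wild type (log2 fold change −0.94).

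Among 13 tested genes of pump regulation, calcium buffering and calcium export, 7 rose and 1 fell. Slc8a1, a sodium-calcium exchanger gene of heart and smooth muscle, had 107, 150 and 165 in mdx and was listed at 0 in wild type. Atp2b4 and Atp2b1, both genes of plasma membrane calcium pumps, rose 2.01-fold and 2.17-fold (limma adjusted p = 0.00643 and 0.0109). Canx, encoding the endoplasmic reticulum chaperone calnexin, fell to 5153 ± 395 in mdx, against 8328 ± 538 in wild type. Calr of the same list was called higher, at 7920 ± 870 in mdx and 4914.5 ± 1201 in wild type (limma adjusted p = 0.0291).

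Of 11 tested paralogs of the coupling genes and their inositol trisphosphate receptor relatives, 3 rose and 0 fell. Itpr3, an inositol trisphosphate receptor gene, had 1384 ± 115 normalized counts in mdx and 170 ± 91.9 in wild type (8.68-fold, limma adjusted p = 0.000473). Atp2a3 had 947, 784 and 969 in mdx and 136 and 12 in wild type (log2 fold change 4.35, limma adjusted p = 0.0050), and Cacna1c, the cardiac and smooth muscle calcium channel, had 270, 169 and 112 in mdx and 2 and 38 in wild type. None of these 3 genes is the skeletal muscle member of its family. At an unadjusted p under 0.05 in the same limma fit, 4 were higher and 1, Cacna1d, was lower, against 21.7% and 16.4% of all tested genes.

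Store-operated entry, which refills calcium stores from outside the cell, gave 2 rises and 1 fall among 10 tested genes, close to the 14.6% and 10.3% of all tested genes. Orai1, the pore of that entry pathway, had 140, 78 and 142 normalized counts in mdx and 11 and 1 in wild type. Homer1, encoding a scaffold protein, fell to 1099 ± 275 in mdx, against 3337 ± 270 in wild type (log2 fold change −1.63, limma adjusted p = 0.00177). Genes of membrane excitation and of the transverse tubule rose in 7 of 20 cases and fell in 1, Musk, a receptor kinase gene of the neuromuscular junction named after its values were seen. Dysf, encoding the membrane repair protein dysferlin, had 1007, 913 and 713 in mdx and 0 and 6 in wild type (limma adjusted p = 0.00016). Kcnj2, a potassium channel gene, had 101, 303 and 305 in mdx and was listed at 0 in wild type, while Dnm2 and Bin1, which shape membranes, rose 2.58-fold and 2.31-fold.

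**Figure D4:**
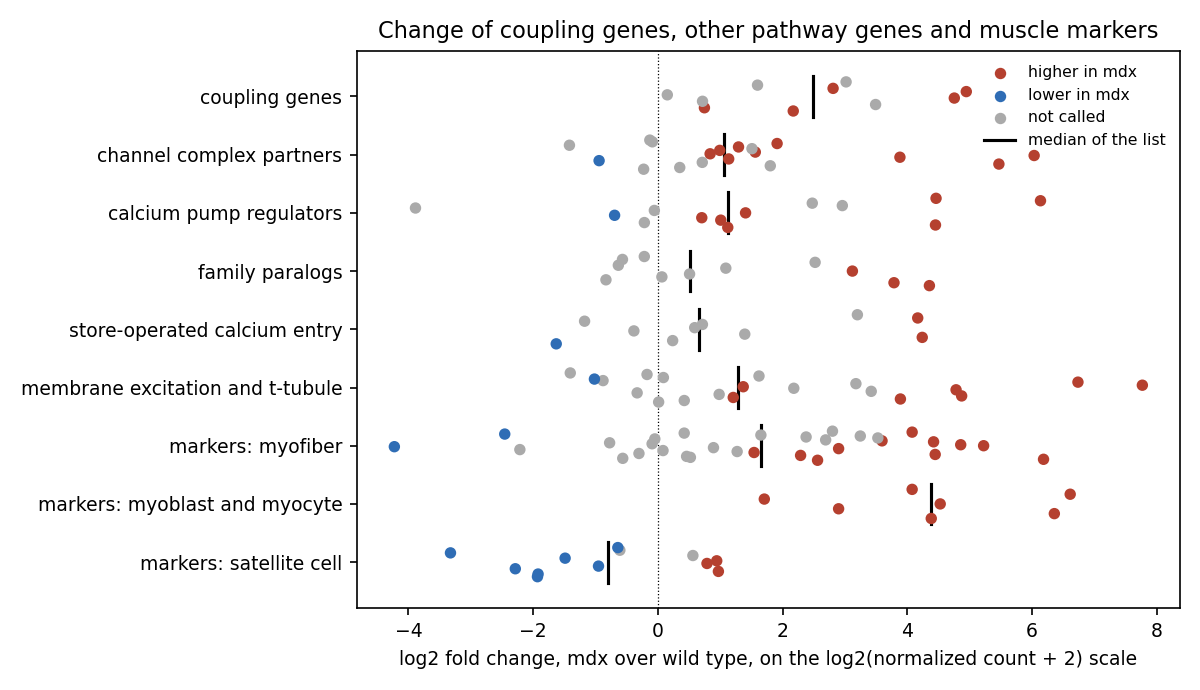
Log2 fold changes, mdx over wild type, on the log2(normalized count + 2) scale (horizontal axis) for the 10 coupling genes, 5 lists of other pathway genes and 3 lists of muscle markers, with 1 point per tested gene. Red points were called higher, blue points lower and grey points were not called by limma, and black bars are list medians. The coupling genes have a median of 2.49, the myofiber markers 1.65 and the myoblast and myocyte markers 4.38.

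Markers of other cells also differed between the genotypes. Of 31 tested myofiber markers, 11 were higher in mdx, 2 lower and 18 not called, and their summed normalized counts lay between 37086 and 81468 in mdx and between 6888 and 9209 in wild type. Ttn, the gene of titin, was most of that sum in each mdx library but not in wild type, with 37164, 64744 and 23685 in mdx and 2475 and 2100 in wild type. Ckm, the creatine kinase gene of mature fibers, was not called, at 298, 63 and 229 in mdx and 178 and 78 in wild type, nor were Myh1, Myh2 and Myh4 of adult fast fibers. The embryonic myosin gene Myh3 was called higher (218, 321 and 152 in mdx, 35 and 22 in wild type), as was Acta1, the skeletal actin gene (2255, 933 and 1234 in mdx, 206 and 260 in wild type). In wild type, Myh8, Tnni1, Tnnc1 and Myoz1 had 0 in both libraries. The 2 lower markers were Myh7 and Tnnt1 of slow fibers. Ttn, Ckm, Tnnt1, Neb, Eno3, Actn2, Ldb3, Myoz1 and the myosin genes other than Myh3 were named after their values were seen.

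Markers of myoblasts and myocytes were called higher in 7 of 7 tested cases, with sums of 28743 to 69773 in mdx and 2366 to 3081 in wild type and only Mymx at 0 in wild type. This list shares Ttn and Myh3 with the myofiber list, and without Ttn its sums were 4806 to 5058 in mdx and 266 to 606 in wild type. Myog, the differentiation factor myogenin, had 1806, 1605 and 1491 normalized counts in mdx and 91 and 1 in wild type. Endothelial markers were higher in 10 of 11 cases (summed 18723 to 24123 in mdx, 3098 to 3594 in wild type, with Emcn and Cldn5 at 0 in wild type). The other endothelial marker, Tek, was lower in mdx (log2 fold change −0.73, limma adjusted p = 0.0392), and without it the sums were 16698 to 22694 in mdx and 371 to 530 in wild type. Macrophage markers were higher in 10 of 11 (10579 to 15726 in mdx, 428 to 596 in wild type, with Itgam, Mrc1, C1qa, C1qb and C1qc at 0 in wild type). Fibro-adipogenic markers were higher in 8 of 10 (97261 to 170810 in mdx, 32153 to 44647 in wild type), and pericyte and smooth muscle markers in 5 of 10 (10408 to 11826 in mdx, 3395 to 4320 in wild type), with none of either list at 0 in both wild-type libraries. Each of these lists had 1 lower marker, Dpt (log2 fold change −2.26) and Tagln (log2 fold change −4.61). Most of the fibro-adipogenic sums in wild type came from Gsn (17849 and 13729, not called), Col3a1 (16215 and 7707) and Dpt (9675 and 9371). Acta2, not called, was most of the pericyte and smooth muscle sums in wild type (2925 and 2129). Of all tested genes, 14.6% were higher and 10.3% lower. The part of any of these cells in the levels of the coupling genes was not tested.

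For each called coupling gene, the closest profiles were sought among 171 other tested genes of the lists, as the root mean square difference of log2 values over the 5 libraries after centring each gene. Ryr1 lay closest to Myh3 (0.56), Acta1 (0.57) and Dcn (0.58), a proteoglycan gene of connective tissue. Atp2a1 was closest to Col3a1 (0.24), Pdgfrb (0.29) and Srl (0.35), which encode a collagen, a growth factor receptor of pericytes and sarcalumenin of the sarcoplasmic reticulum. Atp2a2 had Camk2d (0.15) and Itpr2 (0.19) nearest, and Casq2 had Slc8a3 (0.30), Chrng (0.31) and Camk2a (0.52). The nearest profiles to Jph2 were those of Ly6a (0.16), Ptprc (0.68) and Rgs5 (0.68), markers of fibro-adipogenic, blood-derived and pericyte cells. All these profiles share the same 5 libraries, and the likeness is a description.

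The genomic spans of several coupling genes, introns included, overlap those of other annotated genes. Whether any reads were shared was not tested, and the sources used here do not give the strand setting of the counting. Inside Atp2a2 lie Gm43359 and Gm43360 on the same strand and Gm43361 on the opposite one. Their normalized counts ran from 55 to 779 in mdx and from 102 to 723 in wild type, and 0 of the 3 passed (limma adjusted p = 0.406 to 0.927). Gm17224, antisense to Casq1, had 22, 2 and 0 in mdx and 99 and 9 in wild type. Atp2a1 shares 44 bases with Rabep2, which did not pass (limma adjusted p = 0.598), and Gm26604, antisense to Ryr1, stood at 0, 8 and 0 in mdx and 17 and 0 in wild type. Within Casq2, 4632404M16Rik on the same strand had 0, 6 and 8 in mdx and 0 and 0 in wild type. Trdn, Cacna1s, Jph1, Jph2 and Stac3 overlapped no other gene of the matrix.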

How the data were processed

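Total RNA from sorted satellite cells was sequenced after stranded low-input library preparation, per the labels' protocols. The submitters' processing notes name STAR 2.6.1d, featureCounts 1.6.3, DESeq2 1.18.1 and the build mm10, without saying what each did. The sources used here give no strand setting, multimapping rule or gene filter. The deposited values are read here as a score: whole numbers that the authors made from counts by scaling and rounding. This reading rests on the values. Each gene's ratio to its mean had a median of 1.03 to 1.04 in all 5 columns although totals differed. In mdx 1, 6 whole numbers from 1 to 30 never occurred, while 0 were absent in mdx 2, mdx 3 and both wild-type columns. Raw counts, and so counting intervals, could not be recovered.

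Values were transformed to log2(normalized count + 2). The 18199 genes with at least 10 in at least 2 libraries were fitted with limma 3.58.1 in R 4.3.3, genotype as the only term, with trended and robust moderation. P-values are two-sided and adjusted by Benjamini-Hochberg across the 18199 genes (threshold 0.05). Folds above are 2 to the power of the log2 fold change on that scale, so for low genes they depend on the pseudocount and may exceed or fall short of a ratio of means. Relative levels use the longest GENCODE M21 transcript. The length and GC correction subtracts a spline trend (4 degrees of freedom each) per library. The model was tested on simulated data. Figures were drawn with matplotlib 3.10.9.

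Named genes are the 10 coupling genes, up to 4 called genes with the smallest p per pathway list, and for each called coupling gene the 3 closest profiles. Some genes that this rule names are not reported here. Myog, Acta1 and Mybpc1 are among the 3 markers of their lists with the highest level per kb. Other genes are named as exceptions, as checks or after their values were seen. The members and lists were chosen with earlier results of these data known. Alternatives were other pseudocounts (1 and 10), no filter or a minimum of 50, quantile or counts-per-million scaling, the length and GC correction, a replicate block, plain moderation, and leaving out each library. Leaving out a wild-type library left 1 in that group, so only effect sizes are given for those fits.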

Additional observations from a re-analysis of the deposited data

How the results depend on the processing

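The count of 5 coupling genes called higher was 5 with either pseudocount, either filter, quantile or counts-per-million scaling, 4 after the length and GC correction, 3 with plain moderation, and 2 to 6 with 1 library left out. The lower end came without mdx 3, where Ryr1 and Atp2a1 were the only calls. The count called lower was 0 in every alternative that kept both wild-type libraries. Jph1, not called, had a log2 fold change of −0.15 after the length and GC correction. In the other pathway lists the 28 called higher became 17 after the length and GC correction, 13 with plain moderation and 9 to 33 with 1 library left out, and the 4 called lower became 1 with plain moderation and 2 to 8 with 1 library left out. The difference in the Casq1 to Casq2 log2 ratio was −2.36 with a pseudocount of 10. With 1 library left out, the differences ran from 0.69 to 2.16 for Atp2a1 to Atp2a2, from −4.56 to −3.74 for Casq1 to Casq2 and from −6.76 to −2.83 for Jph1 to Jph2. The causes were not tested.

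Same-numbered libraries did not deviate together (r = −0.014 for number 1 and −0.017 for number 2), so the numbers are not taken as pairs. With the replicate number as a block, 3 coupling genes were higher (Ryr1, Atp2a1 and Jph2) and 0 lower, and 10 other pathway genes were higher and 1 lower. The shares of all tested genes called with the block were 6.39% higher and 4.73% lower, against 14.6% and 10.3% in the main fit.

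Over all tested genes, 58.7% of calls were higher in mdx (2659 against 1868), 47.2% after the length and GC correction (1769 against 1978). The median log2 fold change of all genes shifted by 0.18 with counts-per-million scaling, −0.13 with quantile scaling and −0.17 with the length and GC correction. Cacna1s, Jph2 and Stac3 are limited by low values that differ between the wild-type libraries, and Trdn by mdx 2 at 0. Trdn could not be tested without mdx 1, without mdx 3 or with a minimum of 50.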
